A study of Homo sapiens with 8 samples.

Results

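The mitosis and spindle checkpoint genes described here are 48 human genes of the G2/M and mitotic machinery, given as a list of symbols. A gene was included when a probe on the array carried a RefSeq accession of its symbol. This held for 47 of the 48, and these 47 were among the 15454 genes tested, while PLK1 was not analysed here. All 47 were well above background on all 8 arrays. The cells were OAW42-R, a cisplatin-resistant line that was selected from the serous ovarian cancer line OAW42 by repeated exposure to cisplatin, and the labels name no cisplatin treatment for these arrays. In the sictrl condition, the cells received the Lincode nontargeting siRNA pool. In the siUCA1 condition, they received the siRNAs numbered 2 and 4 together, both directed at the short and the long isoform of the long noncoding RNA UCA1. The siRNA concentration was 20 nM in both conditions. The labels put RNA extraction 24 h after transfection, whereas the study's methods give a later time, so the time point is uncertain. Total RNA of 4 independent experiments was labelled with Cy3 and hybridised to 8 one-color Agilent arrays, 4 per condition, and the labels name the replicates of either condition A1, M2, A2 and A3. Results come from 1 cell line and 1 pair of siRNAs used together.

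A cell enters mitosis when cyclin B and CDK1 become active as a kinase, after which chromosomes condense, attach to the spindle through their kinetochores and are pulled apart. The spindle checkpoint (MAD2, BUB1, BUBR1, MPS1) senses kinetochores without attachment and holds back CDC20, the activator of the anaphase-promoting complex, until all are attached. Transcripts of these genes accumulate together in G2 and mitosis, largely through the DREAM and MYB-MuvB complexes and FOXM1, and their level in a culture depends on how many of its cells are dividing. These arrays measured bulk RNA, in which fewer mitotic cells and less RNA per mitotic cell cannot be told apart.

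MuvB complexes bind the element TTTGAA or TTCGAA, called the cell cycle genes homology region, and NF-Y binds CCAAT, so promoters were searched for these letters on both strands. Promoters of 300 bases, 250 before and 50 after the annotated start, came from RefSeq on GRCh38.p14, which held 41 of the 47 tested genes and none for AURKA, BIRC5, BUB3, FOXM1, TPX2 and TTK. TTTGAA or TTCGAA stood in 31 of the 41 promoters (75.6%), against 16.6% of the 27305 promoters searched and 10.9% of the 9514 promoters of tested genes. TTCGAA reads the same on both strands, a stretch that is 1 of these elements is never the other, and neither contains CCAAT. Between 100 bases before and 50 bases after the start, the element stood in 28 of 41 (68.3%), against 4.54% of the promoters of tested genes. CCAAT stood in 32 of 41 (78.0%), against 35.7% of all promoters searched and 37.6% of those of tested genes. Both kinds of element stood together in 26 of 41 (63.4%), against 6.58% of all promoters searched and 4.77% of those of tested genes. The 31 promoters held the element at 42 places, with TTTGAA in the direction of the gene at 30, TTTGAA on the opposite strand at 9 and TTCGAA at 3. Stretches of 30 bases are printed for 9 promoters to show what the element looks like in place, 5′ to 3′ along the gene, with the element in capitals. They were chosen from places near the start with TTTGAA in the direction of the gene and do not represent the distant or opposite-strand places, such as TTTGAA 161 bases before the start of CDK1 or on the opposite strand 28 bases before that of KIF11. They lie at chr15:59105105-59105134 (plus strand) for CCNB2, chr15:40161034-40161063 (plus strand) for BUB1B, chrX:70290058-70290087 (plus strand) for KIF4A, chr1:43358904-43358933 (plus strand) for CDC20, chr2:26786026-26786055 (plus strand) for CENPA, chr2:168890416-168890445 (minus strand) for SPC25, chr4:120066807-120066836 (minus strand) for MAD2L1, chr15:41332882-41332911 (plus strand) for NUSAP1 and chr10:128126435-128126464 (minus strand) for MKI67.
CCNB2: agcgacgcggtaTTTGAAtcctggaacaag
BUB1B: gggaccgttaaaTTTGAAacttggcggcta
KIF4A: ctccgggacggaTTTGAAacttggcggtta
CDC20: cgacggttggatTTTGAAggagccaatagg
CENPA: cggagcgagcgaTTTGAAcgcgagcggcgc
SPC25: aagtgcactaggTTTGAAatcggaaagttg
MAD2L1: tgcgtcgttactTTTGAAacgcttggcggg
NUSAP1: tggcgccagggaTTTGAAccgcgctgacga
MKI67: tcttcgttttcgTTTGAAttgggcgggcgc
The element printed began 29 bases before the start in CCNB2, 23 in BUB1B, 34 in KIF4A, 65 in CDC20, 18 in CENPA, 3 in SPC25 and 29 in MKI67, the gene of the proliferation antigen Ki-67, and 25 bases after it in MAD2L1 and 14 in NUSAP1. Of these promoters, those of CDC20, SPC25 and MKI67 held the element at a further place, which began 178, 247 and 47 bases before the start. BUB1B and KIF4A shared a run of 16 bases around it, ATTTGAAACTTGGCGG. A match of letters is a description of the promoter and does not show that a factor was bound in OAW42-R cells.

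The 8 arrays lay on 1 slide and were scanned in 1 run, with 20858 to 24039 spots well above background and no saturated spot. Values below are log2 intensities after subtraction of the array's 75th percentile, so that 0 is the level of that percentile, and are always listed in the order A1, M2, A2, A3. UCA1 itself (NR_015379) stood at 8.35, 8.37, 8.60 and 7.48 in sictrl and at 3.68, 2.59, 3.02 and 3.34 in siUCA1, a log2 fold change of -5.04 ± 0.29 (SE, n = 4 per condition; limma adjusted p = 0.000122), or 97.0% lower. Markers of ovarian carcinoma cells were well above background on all 8 arrays for 7 of 9 genes (PAX8, EPCAM, KRT7, KRT8, KRT18, KRT19, SOX17) and on none for WT1 and MUC16. Of these 7, SOX17 rose with siUCA1 (log2 fold change 0.61, adjusted p = 0.00645), and the median log2 fold change of the 7 was 0.30, or 0.57 without sictrl A3 and siUCA1 A1, where EPCAM passed too. The call of SOX17 was lost in 3 of 26 alternatives, among them scaling on the array median (log2 fold change 0.51, adjusted p = 0.199), with an adjusted p of 0.000341 to 0.199 over all 26. Of 9 markers of leukocytes, endothelium and fibroblasts, CD14 was above background on all 8 arrays and rose with siUCA1 (log2 fold change 0.70, adjusted p = 0.0478), 3 others were so on 1 to 5 arrays, and CD3E, CDH5, DCN, LUM and PDGFRB on none. The call of CD14 was lost in 15 of 26 alternatives, among them the 6 arrays left without sictrl A3 and siUCA1 A1 (log2 fold change 0.64, adjusted p = 0.0795), with a log2 fold change of 0.44 to 0.87 over all 26 and an adjusted p of 0.00519 to 0.36. The part of these markers in the results below was not tested. Arrays sictrl A3 and siUCA1 A1, which share column 2 of the slide, stood apart from the rest. Feature Extraction removed a trend in brightness over their surface with a root mean square of 0.321 and 0.287, against 0.0737 to 0.0943 on the other 6 arrays. Calls, medians over the set and signs by role are therefore also given without these 2 arrays.

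Over all 8 arrays, none of the 47 mitotic genes passed the test in either direction. Across all 15454 genes, 11.6% were DEGs at an adjusted p under 0.05 (limma with Benjamini-Hochberg adjustment over all genes), 5.72% higher and 5.85% lower in siUCA1. The smallest adjusted p of a mitotic gene was 0.0780, for NUSAP1, which was also the 1 gene with an unadjusted p under 0.05 (over all genes, 13.1% were lower and 14.5% higher at that limit). The log2 fold changes of the mitotic genes ran from -0.48 (KIF2C) to 0.31 (PRC1), with 30 negative, 17 positive and a median of -0.06, against a median of 0.03 over all genes. When arrays were scaled on their median rather than their 75th percentile, 36 were negative and 11 positive, with a median of -0.15 against -0.07 over all genes, and by role the medians of the cyclin-CDK1 core and of the spindle checkpoint turned negative, to -0.08 each, with 4 of 6 negative in either. Their median size without regard to sign was 0.13, against 0.20 over all genes, and 40 of 47 lay within 0.25 of 0. Without sictrl A3 and siUCA1 A1, that median size was 0.17, against 0.22 over all genes, and 32 of 47 lay within 0.25. A p that misses the threshold does not show that 2 conditions are alike, so the intervals matter here. The 95% interval lay inside a 2-fold change either way for 45 genes, the exceptions being CCNB1 and KIF2C, and inside a 1.5-fold change for 35. Without the 2 arrays these counts were 46, with CENPA as the exception, and 36. All siUCA1 values lay above all sictrl values for 1 gene, CDC25B, and below them for none, while such a separation upward was found for 11.2% and downward for 9.67% of the 15445 genes measured on every array.

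**Figure D1:**
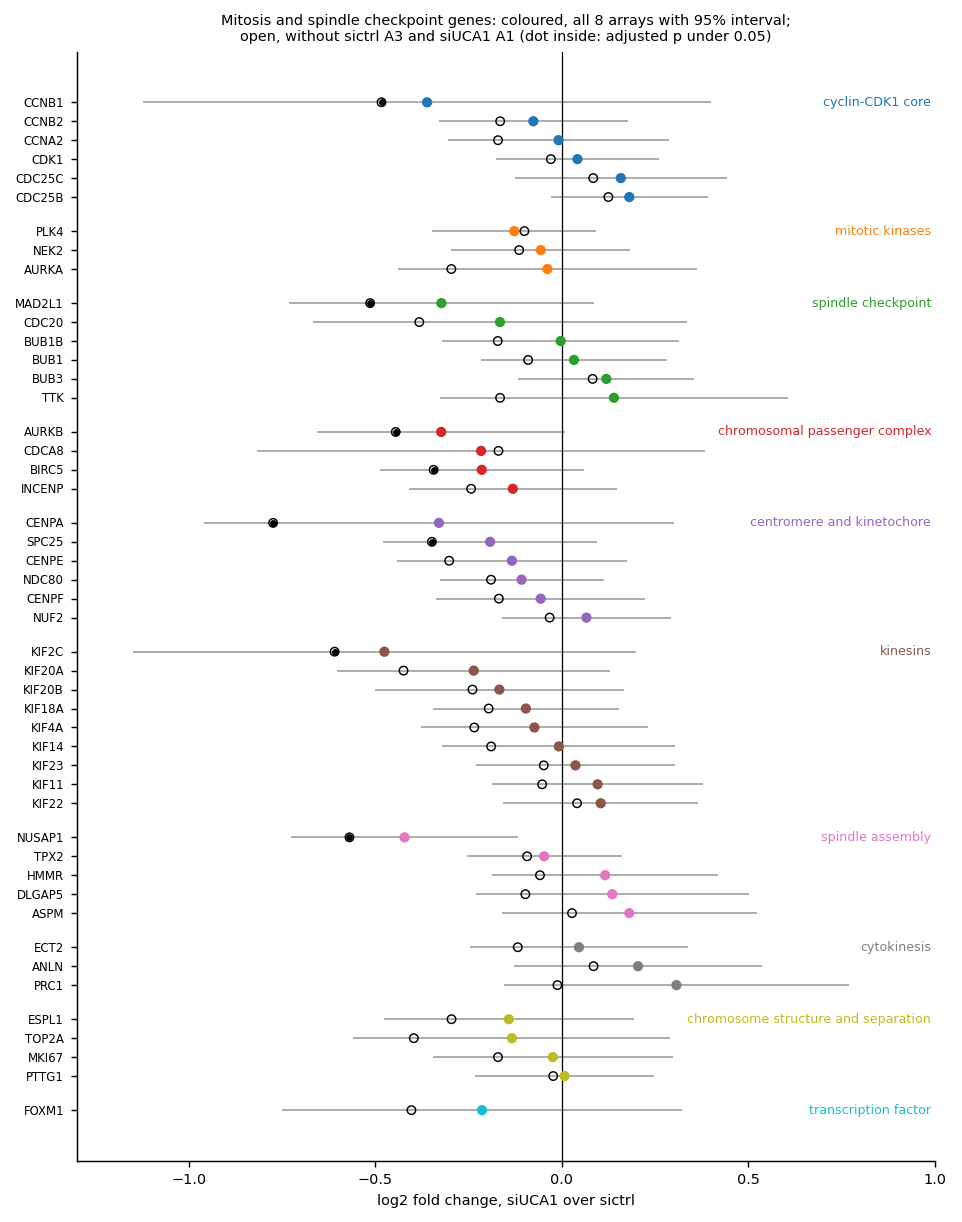
Log2 fold change of siUCA1 over sictrl (x axis) for the 47 mitotic genes in blocks by role. Coloured points with bars are all 8 arrays with the 95% interval, and open circles leave out sictrl A3 and siUCA1 A1, with a dot inside where the adjusted p was under 0.05. Coloured points lie between -0.48 and 0.31 and the open circles lie mostly to their left, with 41 of 47 below 0.

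Within the cyclin-CDK1 core (CCNA2, CCNB1, CCNB2, CDK1, CDC25B and CDC25C), 3 log2 fold changes were negative and 3 positive, with a median of 0.02, and without sictrl A3 and siUCA1 A1 4 were negative and 2 positive, with a median of -0.10. CDK1, the kinase that drives entry into mitosis, stood at log2 levels of 4.07, 3.98, 3.98 and 3.96 in sictrl and 4.22, 4.00, 3.89 and 4.05 in siUCA1. Its log2 fold change was 0.04 (95% interval -0.18 to 0.26, adjusted p = 0.824), which leaves room for a change of at most about 0.26 upward. The conditions overlapped, and 7 of the 8 values fell between 3.89 and 4.07. CCNB1, its mitotic cyclin, had levels of 6.27, 6.37, 6.48 and 5.05 in sictrl and 5.05, 5.88, 6.00 and 5.79 in siUCA1. The lowest sictrl value and the lowest siUCA1 value were those of sictrl A3 and siUCA1 A1, and the log2 fold change of -0.36 (95% interval -1.12 to 0.40, adjusted p = 0.534) had the widest interval of all 47. CCNB2, the second mitotic B-type cyclin, was at 5.27, 5.31, 5.29 and 5.32 in sictrl, a spread of only 0.05, and at 5.51, 5.07, 5.14 and 5.16 in siUCA1. For CCNB2, 3 siUCA1 values lay below all of sictrl and 1 above, giving a log2 fold change of -0.08 (adjusted p = 0.709). CDC25B, a phosphatase that removes the inhibitory phosphates from CDK1, was the gene without overlap, at 4.83, 4.92, 4.95 and 4.69 in sictrl and 5.04, 5.04, 5.08 and 4.95 in siUCA1. The separation was narrow, since the highest sictrl value and the lowest siUCA1 value both rounded to 4.95, with a log2 fold change of 0.18 (adjusted p = 0.244; two-sided exact permutation p = 0.0286, the smallest that 4 against 4 arrays allow). Cyclin A2 (CCNA2) and the phosphatase CDC25C differed by -0.01 and 0.16 in log2 fold change.

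Among the mitotic kinases AURKA, NEK2 and PLK4, all 3 log2 fold changes were negative, between -0.13 (PLK4) and -0.04 (AURKA), and none passed. All 3 were also negative without sictrl A3 and siUCA1 A1, with a median of -0.11, and none passed. AURKA, the kinase of the spindle poles, stood at 5.30, 5.35, 5.44 and 4.90 in sictrl and 5.64, 5.19, 5.10 and 4.93 in siUCA1. Its highest value of all 8 was siUCA1 A1 and its lowest was sictrl A3, and the 95% interval ran from -0.44 to 0.36. PLK4, which sets the number of centrioles, was the 1 mitotic gene with siUCA1 A1 as the lowest of all 8 arrays, at -0.90, -0.71, -0.71 and -0.61 in siUCA1 against -0.53, -0.67, -0.53 and -0.69 in sictrl. NEK2, a kinase of centrosome separation, differed by -0.06 in log2 fold change.

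Of the spindle checkpoint genes, 3 of 6 log2 fold changes were negative, with a median of 0.02. This split changed with the arrays used. Without sictrl A3 and siUCA1 A1 5 were negative and 1 positive, with a median of -0.17. Without sictrl A3 alone the signs were also 5 and 1, with a median of -0.05. Without siUCA1 A1 alone 4 were negative and 2 positive, with a median of -0.07. MAD2L1, which encodes the MAD2 protein that sequesters CDC20, was at 2.98, 2.99, 2.79 and 2.84 in sictrl and 3.09, 2.16, 2.47 and 2.58 in siUCA1. Its siUCA1 arrays M2, A2 and A3 lay below every sictrl array while siUCA1 A1 lay above them all, and the log2 fold change was -0.32 (95% interval -0.73 to 0.09, adjusted p = 0.287). BUB1, a kinase that recruits checkpoint proteins to the kinetochore, was at 4.15, 4.19, 4.17 and 3.89 in sictrl and 4.29, 4.07, 4.17 and 3.99 in siUCA1, a log2 fold change of 0.03 (95% interval -0.22 to 0.28). BUB1B, the gene of the checkpoint protein BUBR1, was at 3.05, 3.19, 3.06 and 2.88 in sictrl and 3.38, 3.07, 2.94 and 2.78 in siUCA1, with almost equal means and an interval of -0.32 to 0.31 for the log2 fold change. TTK, the gene of the MPS1 kinase that starts checkpoint signaling, was at 1.79, 1.98, 1.97 and 1.20 in sictrl and 2.25, 1.90, 1.62 and 1.73 in siUCA1. Its sictrl A3 value was the lowest of all 8, and the log2 fold change was 0.14 (adjusted p = 0.710). CDC20, the target of the checkpoint, was at 5.11, 5.25, 5.41 and 5.33 in sictrl and 5.82, 4.94, 4.98 and 4.70 in siUCA1, so that 3 siUCA1 arrays were below all sictrl arrays and the other was above them, with a log2 fold change of -0.17 (adjusted p = 0.679). BUB3, which carries BUB1 and BUBR1 to the kinetochore, gave 0.12 with the probe used and -0.41 with a second probe (adjusted p = 0.354 over probes), so that its probes disagreed in sign. On the second probe siUCA1 A1 stood at 2.05 against 3.00 to 3.24 on the other siUCA1 arrays, and without sictrl A3 and siUCA1 A1 the probes gave 0.08 and -0.0078.

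All 4 genes of the chromosomal passenger complex, which corrects wrong attachments, had negative log2 fold changes, with a median of -0.22 and none past the test. Without sictrl A3 and siUCA1 A1 all 4 were again negative, with a median of -0.29, and 2 passed as lower (AURKB and BIRC5), where 11.4% of all genes were lower. AURKB, its kinase, was at 1.80, 1.88, 2.07 and 1.88 in sictrl and 1.92, 1.65, 1.51 and 1.25 in siUCA1, a log2 fold change of -0.32 (95% interval -0.66 to 0.01, adjusted p = 0.192). Here too siUCA1 M2, A2 and A3 lay below all of sictrl and siUCA1 A1 did not. BIRC5, the gene of survivin, which brings the complex to the centromere and belongs to the IAP family, was at 7.15, 7.14, 7.16 and 7.06 in sictrl and 7.23, 6.73, 6.80 and 6.89 in siUCA1. The sictrl arrays spanned only 0.10 and siUCA1 A1 lay above them, with a log2 fold change of -0.21 (adjusted p = 0.288). INCENP, the scaffold, and CDCA8, the gene of borealin, gave log2 fold changes of -0.13 and -0.22. Without sictrl A3 alone CDCA8 turned to 0.02, and the other 3 genes stayed negative.

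At the centromere and kinetochore, 5 of 6 log2 fold changes were negative, with a median of -0.12, and without sictrl A3 and siUCA1 A1 all 6 were, with a median of -0.25. CENPA, the histone H3 variant that marks the centromere, was at 1.07, 1.23, 1.10 and 0.13 in sictrl and 1.14, 0.43, 0.20 and 0.44 in siUCA1. Here sictrl A3 was the lowest of all 8 arrays and siUCA1 A1 lay within the range of sictrl, and the log2 fold change was -0.33 (95% interval -0.96 to 0.30, adjusted p = 0.490). CENPE, a kinesin that moves chromosomes to the spindle equator, was at 1.86, 1.87, 1.79 and 1.59 in sictrl and 1.96, 1.66, 1.58 and 1.38 in siUCA1, with -0.13 as the log2 fold change (adjusted p = 0.576). The NDC80 complex, which holds the microtubule end, was represented by NDC80, NUF2 and SPC25, with log2 fold changes of -0.11, 0.07 and -0.19. CENPF, a protein of the outer kinetochore, gave -0.06.

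The 9 kinesins, motor proteins that move along microtubules, had 6 negative and 3 positive log2 fold changes and a median of -0.07, and 8 negative and 1 positive without sictrl A3 and siUCA1 A1, with a median of -0.20. KIF11, the motor that pushes spindle poles apart, was at 3.46, 3.55, 3.55 and 3.24 in sictrl and 3.78, 3.52, 3.56 and 3.32 in siUCA1, a log2 fold change of 0.10 (95% interval -0.19 to 0.38, adjusted p = 0.668). KIF2C, a kinesin that takes apart microtubule ends at centromeres, was at 4.55, 4.55, 4.66 and 5.26 in sictrl and 5.19, 4.01, 3.98 and 3.95 in siUCA1. Without sictrl A3 and siUCA1 A1 its values formed 2 tight groups, whereas these 2 arrays reached 5.26 and 5.19, above all others, and the log2 fold change of -0.48 had an interval of -1.15 to 0.20 (adjusted p = 0.342). The cytokinesis motors KIF20A, KIF20B, KIF14, KIF4A and KIF23 gave log2 fold changes of -0.24, -0.17, -0.01, -0.07 and 0.04. KIF18A, which dampens chromosome movement, and KIF22, which pushes chromosome arms outward, gave -0.10 and 0.10.

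Of the spindle assembly genes 3 of 5 had a positive log2 fold change, and of the cytokinesis genes all 3, with medians of 0.12 and 0.20. Both medians turned negative without sictrl A3 and siUCA1 A1, where 1 of the 5 spindle assembly genes was positive, with a median of -0.09, and 1 of the 3 cytokinesis genes, with a median of -0.01. NUSAP1, which binds and bundles spindle microtubules, was at 4.38, 4.50, 4.41 and 4.34 in sictrl and 4.36, 3.83, 3.95 and 3.80 in siUCA1. The siUCA1 arrays M2, A2 and A3 lay below all of sictrl and siUCA1 A1 lay within the sictrl range, with a log2 fold change of -0.42 (95% interval -0.72 to -0.12, adjusted p = 0.0780; two-sided exact permutation p = 0.0571). It was the 1 mitotic gene whose interval did not contain 0. The other spindle genes, TPX2, HMMR, DLGAP5 and ASPM, gave log2 fold changes of -0.05, 0.12, 0.14 and 0.18. ECT2, the exchange factor that starts the contractile ring, ANLN, the ring scaffold anillin, and PRC1, which bundles the central spindle, gave 0.05, 0.20 and 0.31. For PRC1 the sictrl A3 value was 4.62, where the other sictrl arrays had 5.24 to 5.29, and the siUCA1 A1 value was 5.88 against 5.13 to 5.33. When arrays were scaled on their median rather than their 75th percentile, ECT2 turned to -0.05 while ANLN and PRC1 stayed positive.

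TOP2A, the topoisomerase that untangles sister chromatids, was at 3.00, 2.99, 2.92 and 2.42 in sictrl and 3.08, 2.83, 2.45 and 2.44 in siUCA1, a log2 fold change of -0.13 (95% interval -0.56 to 0.29, adjusted p = 0.696). MKI67 was at 3.65, 3.61, 3.64 and 3.59 in sictrl, a span of 0.06, and at 4.00, 3.49, 3.56 and 3.33 in siUCA1, where A1 lay above and the other 3 below every sictrl array. Its log2 fold change was -0.02 (95% interval -0.34 to 0.30), and its 2 other probes gave -0.12 and -0.09. Securin (PTTG1) and separase (ESPL1), which hold and release sister chromatids, gave 0.01 and -0.14. Across TOP2A, MKI67, PTTG1 and ESPL1, 3 log2 fold changes were negative and 1 positive, with a median of -0.08. Without sictrl A3 and siUCA1 A1 all 4 were negative, with a median of -0.23, and none passed. They were then -0.40 for TOP2A, -0.17 for MKI67, -0.02 for PTTG1 and -0.30 for ESPL1. FOXM1, the transcription factor of many genes of this set, was at 3.73, 3.57, 3.70 and 3.89 in sictrl and 4.24, 3.46, 3.32 and 3.01 in siUCA1. The siUCA1 arrays alone spanned 1.24, more than the whole of sictrl, and the log2 fold change was -0.21 (95% interval -0.75 to 0.32, adjusted p = 0.610).

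Of 59 probes for the 47 genes, 58 were kept, and 10 genes had more than 1 kept probe. None of the 58 passed the test over all probes. CCNB1 gave -0.36 and -0.02 with its 2 probes. On the second probe siUCA1 A1 was the highest array of its condition, at 4.45 against 3.19 to 3.41, whereas on the first it was the lowest.

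The mitotic genes moved together on single arrays. Array siUCA1 A1 was the highest siUCA1 array for 42 of the 47 genes, and sictrl A3 was the lowest sictrl array for 32 and the highest for 9. The median difference of the 47 genes from the other arrays of the same condition was 0.38 on siUCA1 A1, against 0.04 for all genes, and -0.20 on sictrl A3, against 0.07 for all genes. Array siUCA1 A3 stood at -0.22 on the same measure, against 0.00154 for all genes, and the remaining 5 arrays lay between -0.10 and 0.10. For the difference between the conditions, the median log2 fold change of the 47 genes was -0.06 over 8 arrays and -0.17 without sictrl A3 and siUCA1 A1. This median was -0.14 without siUCA1 A1 alone, -0.07 without sictrl A3 alone, and turned positive without siUCA1 A3 alone.

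**Figure D2:**
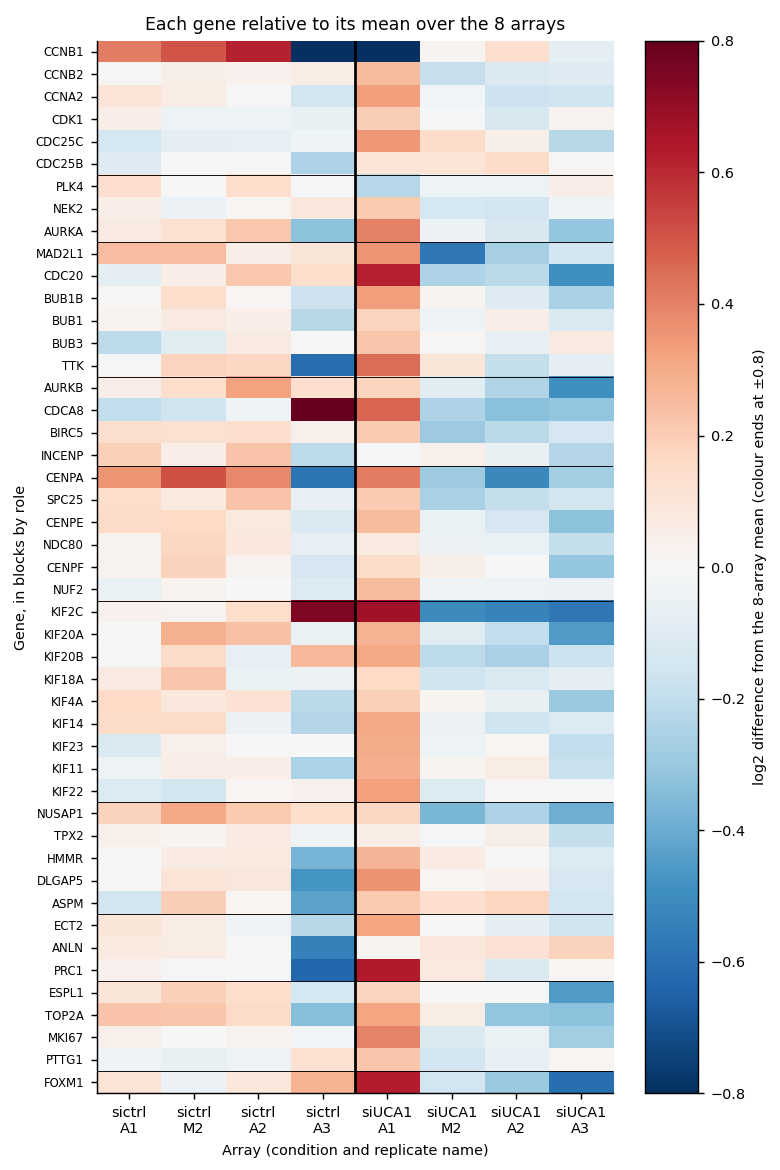
Log2 difference of each mitotic gene (rows, in blocks by role) from its own mean over the 8 arrays, for each array (columns), with sictrl to the left and siUCA1 to the right of the black line and colours ending at 0.8 either way. The siUCA1 A1 column is above the mean for most genes, with CCNB1 and PLK4 as clear exceptions, and sictrl A3 is the lowest sictrl array for 32 of 47.

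Each column of the slide held 1 sictrl and 1 siUCA1 array, so the difference could be taken within columns. In column 1 (siUCA1 A2 minus sictrl M2) the median of the 47 log2 differences was -0.18, with 40 genes lower in siUCA1. In column 3 (siUCA1 M2 minus sictrl A2) it was -0.11 with 37 lower, and in column 4 (siUCA1 A3 minus sictrl A1) -0.23 with 41 lower. In column 2 (siUCA1 A1 minus sictrl A3) it was 0.33, with 3 genes lower. The direction in column 2 was therefore opposite to that in the other 3 columns. No column held 2 arrays of the same replicate name. Column 4 compared the same names as column 2, A1 and A3, in the opposite order. Differences between columns and differences between replicate names therefore cannot be told apart here. Within the rows of the slide, which held 2 arrays per condition each, the medians were -0.04 with 25 lower in row 1 and -0.03 with 26 lower in row 2. With the slide column as a block no mitotic gene passed the test (8.26% of all genes did), and none did after removal of the remaining surface trend (16.5% of all genes did). What set the 2 arrays apart was not tested.

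**Figure D3:**
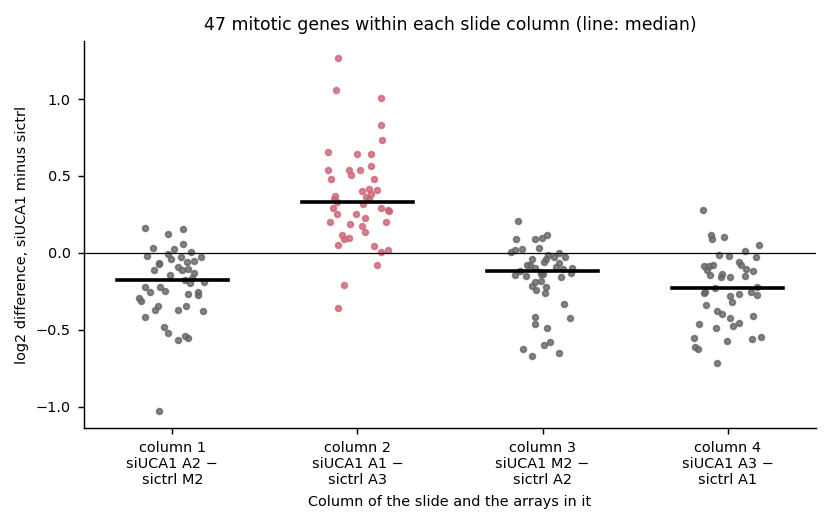
Log2 difference of siUCA1 minus sictrl (y axis) for the 47 mitotic genes within each of the 4 slide columns (x axis, with the arrays compared), each point 1 gene and each line the median. The median was 0.33 in column 2 and between -0.23 and -0.11 in the other columns.

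Without sictrl A3 and siUCA1 A1, 8 of the 47 mitotic genes were lower in siUCA1 and none was higher (3 arrays per condition, 15990 genes tested). In that comparison 11.4% of all genes were lower and 12.9% higher, while 17.0% of the 47 mitotic genes were lower and none higher. At an unadjusted p under 0.05, 16 mitotic genes were lower and 0 higher, against 17.6% of all genes lower and 21.4% higher. No test was made of these shares. In this comparison sictrl kept A1, M2 and A2 and siUCA1 kept M2, A2 and A3, so only M2 and A2 were in both. The mitotic genes were low on A3 in either condition, with a median difference from the condition's other arrays of -0.20 in sictrl and -0.22 in siUCA1. Only sictrl A3 of these was left out. With the replicate name as a block over all arrays, no mitotic gene was called. The 8 genes were picked out after their values were seen. CENPA fell by 0.77 on the log2 scale (limma adjusted p = 0.00428), KIF2C fell by 0.61 (adjusted p = 0.00415) and NUSAP1 fell by 0.57 (adjusted p = 0.00611). MAD2L1 fell by 0.51 (adjusted p = 0.0313), CCNB1 fell by 0.48 (adjusted p = 0.0150; its second probe differed by -0.27) and AURKB fell by 0.44 (adjusted p = 0.0486). SPC25 fell by 0.35 (adjusted p = 0.0245) and BIRC5 fell by 0.34 (adjusted p = 0.0220). The fit without the 2 arrays was the only 1 of 27 that called CCNB1. Without siUCA1 A1 alone CCNB1 gave -0.15 (limma adjusted p = 0.790), and without sictrl A3 alone -0.69 (limma adjusted p = 0.0779). By role, the 8 were 2 centromere and kinetochore genes (CENPA and SPC25), 2 genes of the passenger complex (AURKB and BIRC5) and 1 each of the checkpoint (MAD2L1), the kinesins (KIF2C), spindle assembly (NUSAP1) and the cyclin-CDK1 core (CCNB1). Differences larger than those of SPC25 and BIRC5 but not past the test were those of KIF20A, FOXM1, TOP2A and CDC20, with log2 fold changes of -0.42, -0.40, -0.40 and -0.38 and adjusted p between 0.0517 and 0.0653. Other members lay near 0 with these 6 arrays, among them CDK1 (-0.03), PTTG1 (-0.02), NUF2 (-0.03) and KIF23 (-0.05). PRC1 did so too (-0.01), although it stood at 0.31 over 8 arrays.

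In the same 6 arrays, 41 log2 fold changes were negative and 6 positive, with a median of -0.17 against 0.03 over all genes, and 11 genes that were positive over 8 arrays became negative. All siUCA1 values lay below all sictrl values for 24 of the 47 genes and above them for 2 (ANLN and CDC25B). Over all genes such separation was found downward for 20.2% and upward for 25.7%. With 3 arrays per condition, an exact permutation test cannot give less than p = 0.1 for a single gene. When siUCA1 A1 alone was left out, BIRC5, KIF2C, MAD2L1 and NUSAP1 were lower, 4 of 47 against 8.09% of all genes. With array weights, under which sictrl A3 and siUCA1 A1 counted 0.258 and 0.252 and the others 0.740 to 2.40, 8 genes were lower, against 14.6% of all genes, and 7 of these were among the 8 found without the 2 arrays. The weights were estimated from the same values and were lowest for the 2 arrays left out, so this overlap is not independent support. The element TTTGAA or TTCGAA stood in 4 of the 7 promoters found for the 8 lower genes and in 27 of 34 found for the other tested members.

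**Figure D4:**
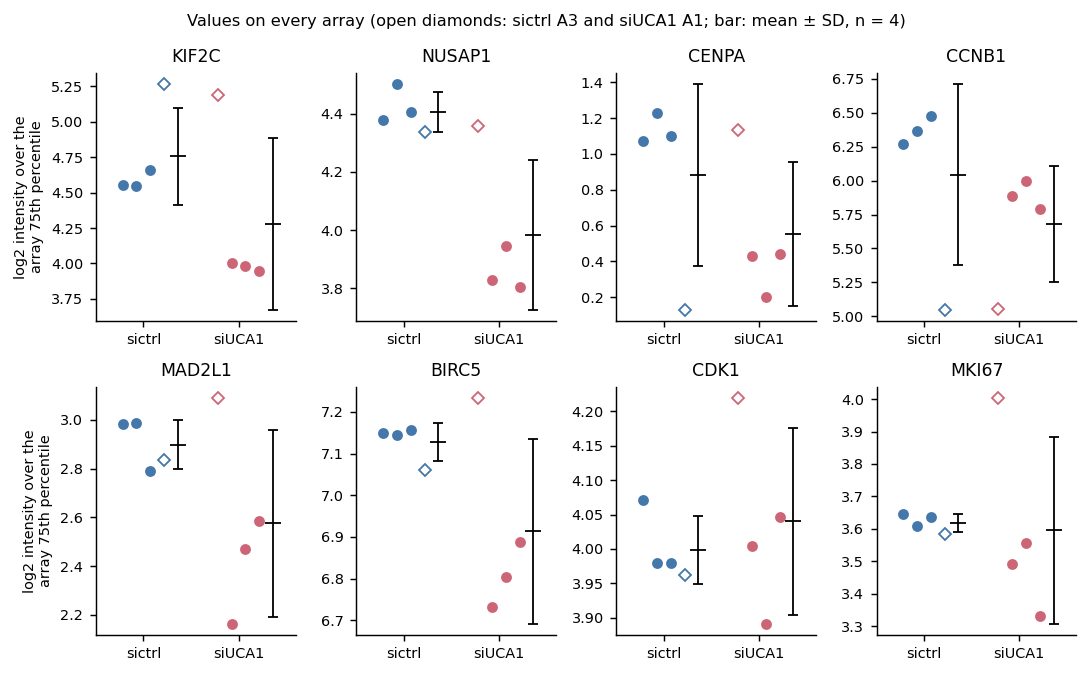
Log2 intensity relative to the array's 75th percentile (y axis, its own range in each panel) on every array for 8 mitotic genes in sictrl (blue) and siUCA1 (red), with the mean ± SD (n = 4) as a bar and sictrl A3 and siUCA1 A1 as open diamonds. In KIF2C, NUSAP1, CENPA, CCNB1, MAD2L1, BIRC5 and MKI67 the filled points of the 2 conditions do not overlap, and in CDK1 they do.

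Other genes around mitosis were counted from 7 further lists, over all 8 arrays, where 5.72% of all genes were higher and 5.85% lower. Of 33 other kinetochore and checkpoint genes tested, 1 rose and 1 fell, with a median log2 fold change of -0.04. ZWINT, a kinetochore protein that binds the ZW10 complex, fell by 0.73 (adjusted p = 0.0342) and SPDL1 (spindly), a dynein adaptor at the kinetochore, rose by 0.42 (adjusted p = 0.0495). Of 18 genes of the anaphase-promoting complex, 2 fell and none rose, with a median of 0.01. They were the subunits ANAPC10, which fell by 0.90 (adjusted p = 0.0176), and ANAPC5, which fell by 0.45 (adjusted p = 0.0110). ANAPC5 was at 6.23, 6.23, 6.32 and 6.20 in sictrl and 5.82, 5.75, 5.77 and 5.83 in siUCA1, with no overlap and with the 2 arrays that stood apart close to the others of their condition. Of 18 condensin and cohesin genes, SMC1A, a core subunit of cohesin, fell by 0.52 (adjusted p = 0.0286), and the median was 0.09.

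Of 12 brakes and opponents of CDK1, CDKN1A, the gene of the inhibitor p21 and a p53 target, rose, and the median was 0.05. It was at 1.22, 1.22, 1.27 and 1.52 in sictrl and 2.90, 2.49, 2.28 and 2.62 in siUCA1, and its log2 fold change was 1.26 (adjusted p = 0.00237), or 1.22 without the 2 arrays (adjusted p = 0.00155). Of 13 genes of the DREAM and MYB-MuvB complexes, E2F5 rose by 0.33 (adjusted p = 0.0456), and the median was 0.16. Of 22 centrosome and spindle pole genes, 2 rose and 1 fell, with a median of -0.07. HAUS6 and HAUS8, subunits of augmin, which branches spindle microtubules, rose by 0.51 and 0.34 (adjusted p = 0.00828 and 0.0378), and BORA, an activator of Aurora A, fell by 0.55 (adjusted p = 0.0323). Of 20 G1/S and replication genes, 2 rose and 2 fell, with a median of -0.08. The replication factor MCM10 fell by 0.99 (adjusted p = 0.00362) and the ribonucleotide reductase subunit RRM2 fell by 0.52 (adjusted p = 0.0295), while cyclin E2 (CCNE2) and the licensing factor CDT1 rose by 0.35 each (adjusted p = 0.0446 and 0.0355). These values are log2 fold changes. When arrays were scaled on their median, the signs of the named genes were the same, but of these 14 genes 4 were still called, where calls over all genes dropped to 3.46% from 11.6%. The 4 were ZWINT, ANAPC10 and MCM10 as lower and CDKN1A as higher.

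The 14 genes of these lists called over 8 arrays were also called without sictrl A3 and siUCA1 A1. None of the 14 was called in every alternative. With the slide column as a block 6 were still called (ZWINT, ANAPC5, ANAPC10, CDKN1A, HAUS6 and MCM10), and 12 without siUCA1 A1, where SPDL1 and E2F5 were lost. With the replicate name as a block 8 of the 14 were called, and 7 with the slide row as a block. Between 4 and 12 were called when any 1 array was left out, with 4 called without sictrl A2, without siUCA1 M2 and without siUCA1 A2. With normexp background correction 3 were called and without a detection filter 0. CCNE2 turned to -0.28 (adjusted p = 0.30) when its probes were averaged, and the other 13 had the same sign in every alternative. In those 6 arrays more genes of the lists passed, as did more of all genes, 24.3% against 11.6% over 8 arrays. Those counted lower were 5 of 34 kinetochore and checkpoint genes, 3 of 18 of the anaphase-promoting complex, 3 of 19 of condensin and cohesin, 2 of 12 brakes, none of the DREAM list, 6 of 22 centrosome genes and 6 of 20 G1/S genes. Those counted higher were 2, 1, 0, 3, 3, 2 and 2 in the same order. Over all genes, 11.4% were lower and 12.9% higher, and no test of these shares was made. Median log2 fold changes in these 6 arrays were, in the same order, -0.08, 0.03, -0.08, 0.06, 0.14, -0.09 and -0.18, and -0.17 for the mitotic genes.

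**Figure D5:**
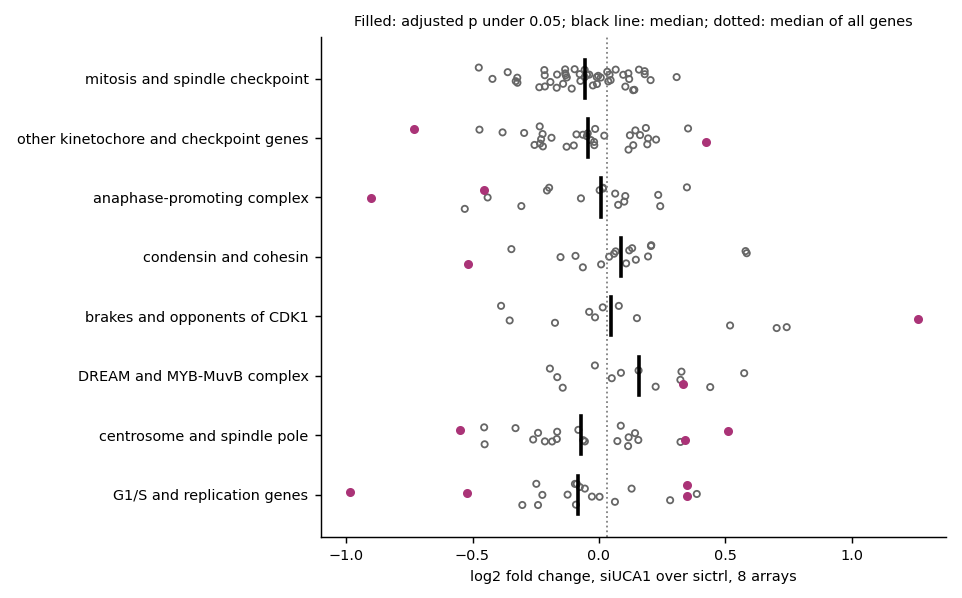
Log2 fold change over 8 arrays (x axis) for the mitotic genes and the 7 related lists (y axis), each circle 1 gene, filled where the adjusted p was under 0.05, with black lines for list medians and a dotted line for the median of all genes (0.03). The mitotic row has no filled circle, and the filled circle farthest to the right is CDKN1A at 1.26.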

How the data were processed

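RNA from 8 cultures was hybridised to Agilent 8x60k arrays in 1 color, with 4 arrays for each condition, with condition and replicate name taken from the sample labels. The authors deposited the Feature Extraction (10.7.3.1, per the labels) output of the scanner, with a linear intensity per spot that was background-subtracted and freed of a trend over the surface, but not normalized between arrays. The deposited table of the whole series held the same intensity values (largest relative difference 0).

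From these values, log2 was taken, less the 75th percentile over the array's own 60901 non-control spots. Outlier spots were left out and spots of a probe averaged. Probes entered if well above background on every array of sictrl, of siUCA1 or of both, and the brightest such probe stood for its gene. The RefSeq gene table (GRCh38.p14) gave a symbol to 31104 of 58201 probes, and other probes kept the name of the array's design. All 15454 genes were fitted with limma 3.58.1 (lmFit, eBayes) under R 4.3.3, without covariates, and p-values were adjusted by Benjamini-Hochberg over all of them. Genes with an adjusted p under 0.05 were called DEGs. The procedure was tested on simulated data. Single values were also compared by two-sided exact permutation tests over arrays. Promoters and figures were handled in Python 3.11.15 with numpy 2.4.6, pandas 2.3.3 and matplotlib 3.10.9. The number of arrays limits the precision.

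The members and lists were chosen with earlier results of these data known. Values on every array are given for 15 core genes whatever they showed (CDK1, CCNB1, CCNB2, AURKA, AURKB, BUB1, BUB1B, MAD2L1, CDC20, TTK, KIF11, CENPE, TOP2A, MKI67, FOXM1) and for members past the threshold, up to 12. Of each other list, the 2 called genes with the largest rise and the 2 with the largest fall are named. Array values given beyond this (CDC25B, PLK4, BIRC5, CENPA, KIF2C, NUSAP1, PRC1, CDCA8, ANAPC5, CDKN1A and second probes) were chosen after their values were seen. For the counts and the median of the members, 17 alternatives and 8 fits without 1 array were planned, and the slide column as a block was added after seeing the data. The replicate names were also fitted as a block.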

Additional observations from a re-analysis of the deposited data

Results flagged for a closer look

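In a group of 4 arrays, an array was looked at again when its gap to the nearest other array, as a share of the whole range, exceeded the 95% critical value of Dixon's test. This was so for 18 of 98 sets of 4 values, where chance gives about 5%. Most sets are genes measured on the same arrays, so the sets are not independent. In sictrl, A3 was the low array for 8 genes, with a share of 0.924 for PRC1, 0.869 for TOP2A, 0.868 for ANLN, 0.862 for BIRC5, 0.855 for CCNB1, 0.855 for CENPA, 0.854 for BUB1 and 0.841 for DLGAP5. The same array was high for PTTG1 (0.869), KIF2C (0.845) and CDCA8 (0.836), and for the surface trend removed by Feature Extraction (0.944). In siUCA1, A1 was the high array for NUF2 (0.971), KIF2C (0.952), CDCA8 (0.892) and KIF20B (0.848), and for the surface trend (0.903). CDK1 was high on sictrl A1 (0.834), at 4.07 against 3.96 to 3.98. All others of the 18 fell on the 2 arrays of slide column 2. CDCA8 stood at 6.53 on sictrl A3 against 5.51 to 5.67, and at 6.17 on siUCA1 A1 against 5.37 to 5.46, so that both arrays were high for it, as they were for KIF2C. What sets these arrays apart was not tested.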

How the results depend on the processing

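Over 26 alternatives, no mitotic gene was ever higher at the threshold, and in 23 none was called in either direction. The count of lower genes was 8 without sictrl A3 and siUCA1 A1 and 8 with array weights, and between 0 and 4 when 1 array was left out, with 4 (BIRC5, KIF2C, MAD2L1 and NUSAP1) without siUCA1 A1 and 0 in the other 7 such fits. The cause was not tested. The median log2 fold change lay between -0.17 and 0.01, the latter without siUCA1 A3, and 25 of the 47 genes had the same sign in every alternative. PRC1, at 0.31 over 8 arrays, was the largest of the 22 that did not. Same-named arrays were not paired by the labels beyond their names, and the correlation of their deviations was 0.0383 for A1, 0.278 for M2, 0.216 for A2 and 0.127 for A3 over 15445 genes, with A1 and A3 correlating better with another name. With the replicate name as a block, 0 mitotic genes were called and their median stayed at -0.06. Subtracting the median of each array shifted the call split over all genes from 884 higher and 904 lower to 114 and 421. The slide column as a block was added after seeing the data. Depth is limited by 4 arrays per condition: the 95% intervals of the members reached 0.21 to 0.76 to either side on the log2 scale.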
